A study of Homo sapiens with 12 samples.

Results

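The genes described here are the cytokines, chemokines and tumor necrosis factor (TNF) family of MDA-MB-468 cells, together with their receptors. They were chosen by symbol: every gene whose symbol begins with CXCL, CCL, CX3CL, TNFSF, TNFRSF or IL and goes on with a digit, plus LIF and LIFR. The rule found 168 members among 23228 genes, of which 80 (47.6%) had enough counts to be tested, against 62.6% of all genes. MDA-MB-468 is an established human breast cancer line of the triple-negative class, and all 12 libraries came from a derivative in which doxycycline turns on estrogen receptor beta 1 (ERβ1, gene ESR2). The labels do not say whether the derivative is 1 clone or a pool. All cells were grown without phenol red in charcoal-stripped serum, 10% for 3 days and then 5%. Uninduced cells received no doxycycline and induced cells 50 ng/mL for 48 hours. For the last 4 hours each kind of cell received 0.1% DMSO (vehicle) or 10 nM 17β-estradiol. This gave 4 groups of 3 libraries: uninduced vehicle, uninduced estradiol, induced vehicle and induced estradiol. Doxycycline and the receptor it turns on cannot be told apart in this design, since no cells without the inducible receptor are among the libraries. The question named by the series' title is which genes ERβ regulates in triple-negative cells.

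Cytokines are secreted or membrane-bound signals between cells. Interleukins and LIF mostly act through paired receptor chains coupled to JAK kinases and STAT factors, chemokines act through G protein-coupled receptors, and TNF ligands act through trimeric receptors that feed NF-κB or, where a death domain is present, caspases. The interleukin 1 and interleukin 17 receptors also feed NF-κB. In breast epithelium, RANK (gene TNFRSF11A) is known for its part in progesterone-driven gland growth, and carcinoma cells are known to make several chemokines and to be sensitive or resistant to TRAIL (gene TNFSF10).

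ESR2 averaged 1.30 counts per 1000000 counts (CPM) in uninduced vehicle, 1.61 in uninduced estradiol, 121 in induced vehicle and 104 in induced estradiol cells. Libraries held 7.89 to 33.3 M counts, and the members together took 0.136% to 0.148% of them. Epithelial markers summed to 8591 to 10715 CPM per library. Of the leukocyte markers, CD3D, CD2 and MS4A1 were at 0 counts in every library, and the summed level of 22.9 to 38.5 CPM was nearly all CD14. The sum of 6 endothelial markers, mostly KDR, was 35.5 to 52.3 CPM in uninduced and 20.8 to 32.6 CPM in induced libraries, while CDH5 did not exceed 0.375 CPM, and its part in the results was not tested. Since these are bulk libraries, fewer cells making a transcript and less of it per cell cannot be told apart. The libraries numbered 1 in each group carry an earlier date in the names of the deposited files than those numbered 2 and 3, and several members differed with it, as given below.

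Promoters of 5 of the members called with estradiol in induced cells are shown first. Of these, 3 at least doubled with estradiol at an average log2 CPM of 1 or more and have a promoter entry. The other 2 are the falling members with the smallest p. LIF also more than doubled at that level but has no promoter entry, so it is not shown. Each is the RefSeq GRCh38.p14 sequence from 250 bases before to 50 bases after the gene's start, 5′ to 3′, with motif matches in capitals.
IL12A (chr3:159988585-159988884, plus strand): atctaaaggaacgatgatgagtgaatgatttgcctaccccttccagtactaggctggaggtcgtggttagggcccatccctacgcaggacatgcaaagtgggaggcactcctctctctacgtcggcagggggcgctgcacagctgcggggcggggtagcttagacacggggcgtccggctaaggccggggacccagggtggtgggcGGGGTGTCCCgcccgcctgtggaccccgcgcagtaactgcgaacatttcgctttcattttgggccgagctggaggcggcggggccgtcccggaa
IL17RB (chr3:53846318-53846617, plus strand): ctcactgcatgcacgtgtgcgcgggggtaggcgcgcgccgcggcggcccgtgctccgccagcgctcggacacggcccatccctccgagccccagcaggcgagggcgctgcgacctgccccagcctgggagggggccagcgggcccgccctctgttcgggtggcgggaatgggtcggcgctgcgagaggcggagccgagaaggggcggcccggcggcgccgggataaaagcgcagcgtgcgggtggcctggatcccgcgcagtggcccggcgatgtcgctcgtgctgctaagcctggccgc
TNFRSF11A (chr18:62325060-62325359, plus strand): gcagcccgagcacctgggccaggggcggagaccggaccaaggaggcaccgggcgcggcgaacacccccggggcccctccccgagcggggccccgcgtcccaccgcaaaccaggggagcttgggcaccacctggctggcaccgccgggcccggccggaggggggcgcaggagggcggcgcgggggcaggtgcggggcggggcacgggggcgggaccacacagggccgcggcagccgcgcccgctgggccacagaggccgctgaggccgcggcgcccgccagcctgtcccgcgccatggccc
TNFSF10 (chr3:172523381-172523680, minus strand): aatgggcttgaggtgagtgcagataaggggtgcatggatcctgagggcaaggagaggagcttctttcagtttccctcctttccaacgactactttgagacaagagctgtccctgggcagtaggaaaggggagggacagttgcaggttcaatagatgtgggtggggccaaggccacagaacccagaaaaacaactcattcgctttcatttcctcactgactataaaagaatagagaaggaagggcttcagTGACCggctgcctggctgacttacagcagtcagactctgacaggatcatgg
TNFRSF21 (chr6:47309856-47310155, minus strand): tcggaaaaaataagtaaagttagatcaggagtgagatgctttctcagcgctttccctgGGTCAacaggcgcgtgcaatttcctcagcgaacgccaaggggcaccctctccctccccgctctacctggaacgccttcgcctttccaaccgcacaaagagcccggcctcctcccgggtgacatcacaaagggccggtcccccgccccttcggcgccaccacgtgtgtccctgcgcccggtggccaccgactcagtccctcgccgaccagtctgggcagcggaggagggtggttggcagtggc
The motifs searched on both strands were the full estrogen response element (GGTCA, 3 free bases, TGACC), its half-site GGTCA (which the full element contains), the AP-1 site TGANTCA, the STAT site TTCNNNGAA, the CRE site TGACGTCA and the κB site. The capitals in IL12A mark a κB match, and those in TNFSF10 and TNFRSF21 mark estrogen half-sites. The IL17RB and TNFRSF11A windows held none of these letters. Promoters were found for 125 of the 168 members, 5 of them through an older symbol. The full element occurred in 18 of 27305 promoters (0.0659%) and in none of the 125. Half-sites occurred in 37.7% of all promoters, in 32% of the members' promoters, in 0 of 6 members that rose with estradiol in induced cells and in 4 of 9 that fell. The κB motif was in 10.8% of all promoters, in 24% of the members' promoters and in 29.5% of those of the tested members (18 of 61). It was in 2 of the 6 that rose and in 1 of the 9 that fell. AP-1 motifs were in 7.76% of all promoters and 18.4% of the members', STAT motifs in 7.88% and 15.2%, and CRE motifs in 1.98% and 0.8%. These are matches of letters in 300 bases and not measured binding.

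The cells carried more receptor than ligand transcripts. Levels of different genes are compared here in TPM (the share of transcripts scaled to 1000000), which takes gene length into account. Of the 168 members, 59 averaged at least 1 TPM and 21 at least 10 TPM. Receptors made up 14 of those 21: 9 of 42 interleukin and LIF receptor genes and 5 of 21 TNF receptor genes. The ligands at that level were 3 of 44 chemokines, 2 of 44 interleukins and LIF, and 2 of 12 TNF ligands.

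TNFRSF12A, the receptor for the TNF ligand TWEAK, stood highest with a mean of 159 TPM and a range of 139 to 181 TPM over the 12 libraries. CX3CL1, a membrane-anchored chemokine, followed at 87.4 TPM (64.2 to 104), then IL10RB, the shared second chain of several IL-10 family receptors, at 80.8 TPM (72.3 to 90.8). IL13RA1, a chain of the type II IL-4 receptor, averaged 68.3 TPM (60.6 to 72.2), and TNFRSF21, the death receptor DR6, 64.2 TPM (33.6 to 84.3). TNFRSF12A lay clear of all other members. Of the next 4, the range of CX3CL1 overlapped those of the other three, and the lowest IL10RB library lay just above the highest IL13RA1 library. TNFRSF21 spread most, and it differed between groups. TNFSF13 (the ligand APRIL, 59.7 TPM), TNFSF10 (52.1 TPM), TNFRSF1A (the main TNF receptor, 50.1 TPM), IL27RA (45.4 TPM) and CXCL16 (a membrane-anchored chemokine, 40.7 TPM) completed the 10 highest. LIF averaged 19.2 TPM, and its receptor chains IL6ST (gp130) and LIFR 35.4 and 3.03 TPM.

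**Figure D1:**
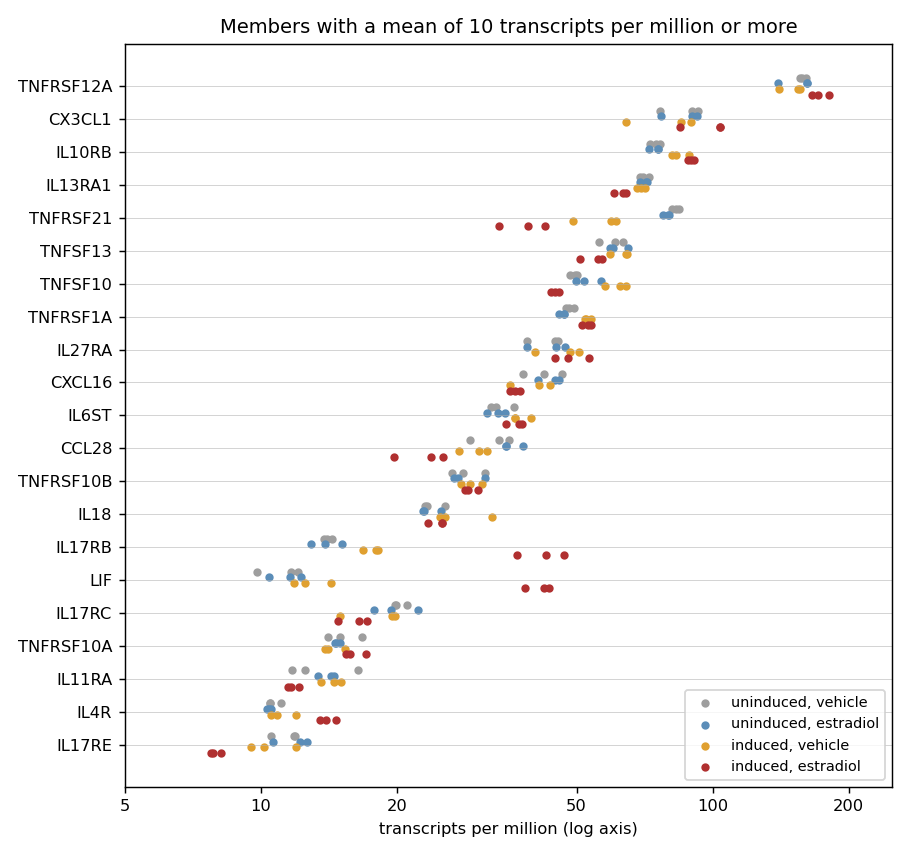
Level of the highest members in each of the 12 libraries, in TPM on a log axis, with the 4 groups in different colors. TNFRSF12A lies above all others at 139 to 181 TPM, and the spread of TNFRSF21, IL17RB and LIF follows the groups.

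Many members had no reads. In all 12 libraries, 42 members had 0 counts, among them 23 of 44 chemokines and 16 of 44 interleukins and LIF but only 2 interleukin receptors and 1 TNF receptor. CCL2, CXCL12, IL1B, IL33 and TNFRSF19 were among them. A count of 0 allows up to 3 counts, which is 0.0896 to 0.375 CPM depending on the library. Of the 88 members not tested, 68 had 3 or fewer counts in every library and 20 had more in at least 1. Of the 80 tested, 22 averaged under 1 CPM. A member that reached the test only through the group where it was high was favored to differ. The counts below therefore describe the tested members and not the whole family. With 1 group left out, 9 tested members would not have reached the minimum of 0.419 CPM in 3 libraries. For CCL17, IL2RA and TNFRSF13C this was true of more than 1 group. IL1R2 was the 1 of them that was called in the fit without a replicate block. TNFRSF11B and TNFSF14 were called only with the block. The rest, CCL16, CCL17, CXCL11, IL29, IL2RA and TNFRSF13C, were called in neither fit.

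Estradiol in induced cells changed 18 of the 80 tested members, 8 of which rose and 10 of which fell (adjusted p under 0.05, edgeR's quasi-likelihood test with Benjamini-Hochberg adjustment over all 14541 genes tested). That is 22.5% of the tested members. The same test called 16.5% of all genes, with 9.85% higher and 6.61% lower. The median log2 change was −0.08 over tested members and −0.00 over all genes. In all 18 the 3 induced estradiol libraries lay wholly on 1 side of the 3 induced vehicle libraries. The same was true of IL10RB, TNFSF13 and IL8, which were not called, but not of CX3CL1 or IL20RA. The share over all genes was not counted, and this separation comes from the same values as the calls, so it adds no support to them. With the replicate number as a block, 27 members were called (12 higher, 15 lower), the 18 among them, against 23.8% of all genes. The increases were led by ligands and receptors that more than doubled, while no called decrease reached a factor of 2.

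LIF, a ligand of the IL-6 family that signals through LIFR and gp130, was at 26.1, 21.8 and 23.0 CPM in induced vehicle libraries and at 72.4, 81.8 and 79.3 CPM in induced estradiol libraries. Uninduced libraries lay at 17.8 to 21.9 CPM with vehicle and 19.2 to 22.4 CPM with estradiol. The 3 induced estradiol libraries thus stood alone above the other 9. The rise in induced cells was 1.74 on the log2 scale (SE 0.08, adjusted p = 4.01e-09). Neither receptor chain passed the test: LIFR shifted by 0.11 (SE 0.09, adjusted p = 0.486) and IL6ST by 0.00 (SE 0.05, adjusted p = 0.992).

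IL12A encodes the p35 subunit, which forms IL-12 with IL12B and IL-35 with EBI3. It was at 3.81, 3.24 and 2.79 CPM in induced vehicle libraries and at 13.8, 13.9 and 15.4 CPM in induced estradiol libraries, a rise of 2.15 (SE 0.12, adjusted p = 1.64e-08). The 6 uninduced libraries ranged from 2.0 to 2.83 CPM, so the induced estradiol libraries did not overlap any other. The partners stayed near 0: IL12B had 0 to 8 counts per library and was not tested, and EBI3 reached at most 0.113 CPM. Of the IL-12 receptor chains, IL12RB1 shifted by −0.06 (SE 0.31, adjusted p = 0.937) and IL12RB2 was not tested. LIF and IL12A were the only 2 that rose among the 11 tested interleukins, with which LIF is counted.

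IL15, a growth signal for T and natural killer cells, was the 1 interleukin that fell. Rises and falls together made up 27.3% of the tested interleukins, against 16.5% of all genes. It stood at 5.13, 4.49 and 4.52 CPM in induced vehicle and 3.98, 2.79 and 3.24 CPM in induced estradiol libraries, a change of −0.50 (SE 0.16, adjusted p = 0.0413). The groups did not overlap, but uninduced libraries (3.46 to 4.87 CPM) overlapped both. The call was lost (adjusted p 0.0506 to 0.186) without any 1 of 8 libraries: uninduced vehicle 2 or 3, uninduced estradiol 2, any induced vehicle library, and induced estradiol 2 or 3. It was also lost in DESeq2 (adjusted p = 0.0745). With the replicate block the adjusted p of IL15 was 0.0172. Its private receptor chain IL15RA shifted by −0.35 (SE 0.14, adjusted p = 0.115).

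**Figure D2:**
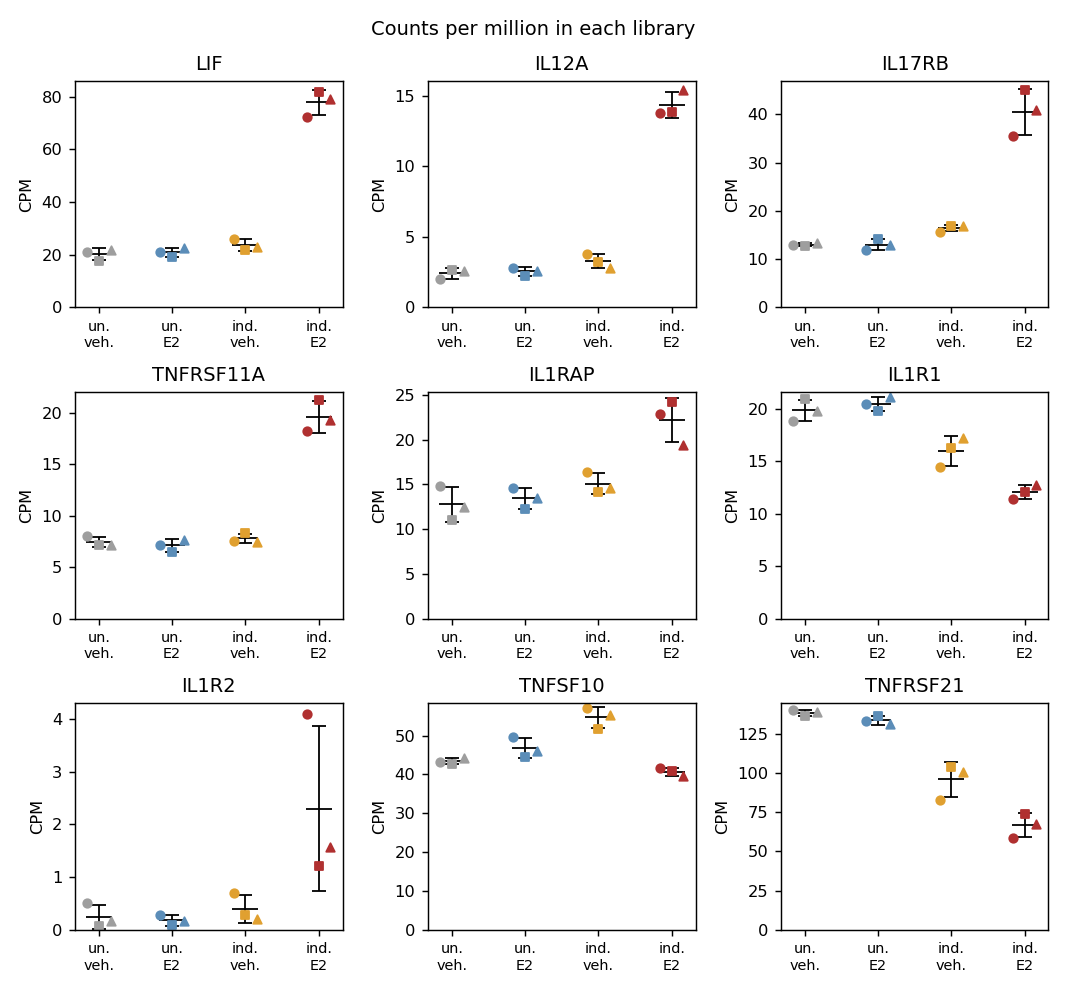
CPM of single members in each library by group, on linear axes from 0, with circles, squares and triangles for libraries numbered 1, 2 and 3 and bars for the mean ± SD (n = 3). LIF, IL12A, IL17RB and TNFRSF11A are high only in the 3 induced estradiol libraries, while TNFRSF21 steps down with induction and again with estradiol.

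Among 29 tested interleukin receptor genes, 4 rose and 4 fell with estradiol in induced cells (27.6%, against 16.5% of all genes). IL17RB, the receptor chain for IL-17B and IL-25, was at 15.7, 16.8 and 16.9 CPM in induced vehicle and 35.5, 45.1 and 40.9 CPM in induced estradiol libraries. The 6 uninduced libraries lay lower still, at 11.9 to 14.2 CPM. Its rise was 1.29 (SE 0.08, adjusted p = 7.46e-08). Its ligands were nearly undetected, with at most 1 count in any library for IL17B and for IL25. Its partner chain IL17RA shifted by −0.08 (SE 0.06, adjusted p = 0.501). A pair of other IL-17 receptor genes fell. IL17RE, which with IL17RA binds IL-17C, was at 12, 15.1 and 12.8 CPM in induced vehicle and 10.6, 10.1 and 9.93 CPM in induced estradiol libraries (−0.40, SE 0.10, adjusted p = 0.0106). IL17RD, also called SEF and known as an inhibitor of fibroblast growth factor signaling, was at 24.6, 31.8 and 32.7 CPM and at 15.6, 22.9 and 21.2 CPM (−0.58, SE 0.15, adjusted p = 0.0127). Without induced vehicle replicate 2 the adjusted p became 0.105 for IL17RE and 0.0720 for IL17RD, and 0.0625 for IL17RD without induced vehicle replicate 3. With all 12 libraries and the replicate block it was 0.0011 for IL17RE and 1.56e-07 for IL17RD.

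The IL-1 receptor genes moved in different directions. IL1R1, the signaling receptor for IL-1, was at 14.5, 16.3 and 17.3 CPM in induced vehicle and 11.4, 12.1 and 12.8 CPM in induced estradiol libraries. This was a change of −0.41 (SE 0.07, adjusted p = 0.00132), from a level already under the 18.9 to 21.1 CPM of the 6 uninduced libraries. IL1RAP, the co-receptor that IL1R1 and its relatives share, rose from 16.4, 14.2 and 14.6 CPM to 22.9, 24.2 and 19.5 CPM (0.57, SE 0.10, adjusted p = 0.00134). IL1R2, a decoy receptor that binds IL-1 without signaling, had 9, 9 and 4 counts in induced vehicle and 72, 31 and 35 counts in induced estradiol libraries. That is 0.699, 0.283 and 0.210 CPM against 4.09, 1.22 and 1.57 CPM, a difference of 2.63 (SE 0.55) on the log2 scale. IL1R2 entered the test only through the induced estradiol libraries, so its difference is given as a description, and it is 1 of the 18 members counted above. With no filter on low counts its adjusted p was 0.00182. The high library is number 1 with the earlier file date, and number 1 was also highest in the other 3 groups. In the libraries of the later date only, the change of IL1R2 with estradiol in induced cells was 2.42. Of the ligands, IL1B was at 0 and IL1A had at most 1 count in any library. The antagonist IL1RN, which blocks IL1R1, fell from 3.19, 3.52 and 3.52 CPM to 2.45, 2.63 and 1.44 CPM (−0.66, SE 0.20, adjusted p = 0.0355). That call was lost without induced vehicle replicate 2 (adjusted p = 0.126), induced vehicle replicate 3 (0.0979) or induced estradiol replicate 3 (0.139). With the replicate block the adjusted p of IL1RN was 0.0159.

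The type II IL-4 receptor pairs IL4R with IL13RA1, and these chains moved apart. IL4R was at 19.7, 18.6 and 18 CPM in induced vehicle and 23.8, 25.8 and 24.0 CPM in induced estradiol libraries, a rise of 0.39 (SE 0.06, adjusted p = 0.000218). The 6 uninduced libraries lay at 17.3 to 18.6 CPM. IL13RA1 was at 127, 133 and 130 CPM and at 117, 123 and 121 CPM (−0.11, SE 0.04, adjusted p = 0.0421). The groups did not overlap, but the change was small, and leaving out any 1 library other than uninduced vehicle 1 or 3 or induced vehicle 1 raised its adjusted p to between 0.0501 and 0.205. In DESeq2 it was 0.0649, and with the replicate block 0.0155. The ligands IL4 and IL13 had at most 1 count and 0 counts in any library.

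Of 14 tested TNF receptor genes, 2 rose and 2 fell (28.6%, against 16.5% of all genes). TNFRSF11A, the receptor RANK, was at 7.54, 8.33 and 7.47 CPM in induced vehicle and 18.2, 21.2 and 19.3 CPM in induced estradiol libraries, a rise of 1.32 (SE 0.09, adjusted p = 1.03e-07). The 6 uninduced libraries lay at 6.42 to 7.99 CPM, so these 3 libraries again stood alone. The RANK ligand gene TNFSF11 had 0 to 2 counts per library, and the decoy for that ligand, TNFRSF11B (osteoprotegerin), shifted by −0.73 (SE 0.76, adjusted p = 0.614) at 0.0449 to 0.466 CPM in induced cells. TNFRSF12A rose from 63.4, 71.0 and 69.9 CPM to 79.7, 84.0 and 76.7 CPM (0.23, SE 0.06, adjusted p = 0.0216). Its adjusted p was 0.0686 without induced vehicle replicate 1, 0.104 without induced estradiol replicate 2 and 0.000618 with the replicate block. The ligand for it, TNFSF12, shifted by 0.07 (SE 0.21, adjusted p = 0.885).

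TNFRSF21 fell from 83.0, 104 and 101 CPM to 58.6, 74.2 and 67.6 CPM (−0.53, SE 0.08, adjusted p = 0.000343). TNFRSF25, the death receptor DR3, fell from 3.50, 2.95 and 3.58 CPM to 2.27, 1.89 and 2.20 CPM (−0.64, SE 0.15, adjusted p = 0.00958). Its adjusted p was 0.0552 without induced estradiol replicate 2 and 0.00341 with the replicate block. Both carry a death domain. The TRAIL receptors TNFRSF10A (0.19, SE 0.08, adjusted p = 0.115) and TNFRSF10B (0.03, SE 0.07, adjusted p = 0.811) did not pass the test.

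Of 8 tested TNF ligands, 1 was called (12.5%, against 16.5% of all genes). TNFSF10, which encodes the death ligand TRAIL, was at 57.0, 51.6 and 55.3 CPM in induced vehicle and 41.6, 40.9 and 39.6 CPM in induced estradiol libraries, a change of −0.42 (SE 0.05, adjusted p = 3.53e-05). The 3 uninduced vehicle libraries lay between these groups, at 42.7 to 44.1 CPM, and uninduced estradiol libraries at 44.5 to 49.5 CPM. The read-through gene TNFSF12-TNFSF13 spans both neighbors whose names it joins, so reads could have been split among the 3. It had 0, 0.708 and 2.16 CPM in induced estradiol libraries. Neither it nor TNFSF12 or TNFSF13 was called in the fit without the replicate block.

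Among 13 tested chemokines, CCL28, a mucosal chemokine, was the only one called (7.69%, against 16.5% of all genes). It fell from 9.64, 10.7 and 11.1 CPM to 7.11, 8.57 and 9.03 CPM (−0.35, SE 0.10, adjusted p = 0.0319). The call was lost without induced vehicle replicate 2 (adjusted p = 0.120), induced vehicle replicate 3 (0.119), induced estradiol replicate 1 (0.106) or induced estradiol replicate 2 (0.0623), and in DESeq2 (0.052). With the replicate block the adjusted p of CCL28 was 0.00514. CX3CL1 was at 97.5, 130 and 136 CPM in induced vehicle and 132, 163 and 162 CPM in induced estradiol libraries. Those groups overlap, but within each replicate number estradiol was higher, and the adjusted p went from 0.0842 to 1.55e-06 with the replicate block. IL8 (now CXCL8), a neutrophil attractant, was at 1.32, 0.786 and 0.947 CPM and at 0.569, 0.236 and 0.449 CPM, with an adjusted p of 0.117, or 0.00347 with the block. The other members called only with the block were IL10RB, TNFSF13, TNFSF12-TNFSF13, IL20RA, IL22RA2, TNFSF15 and IL7R, at adjusted p of 0.0258, 0.0366, 0.0494, 0.00295, 0.0164, 0.0234 and 0.0203.

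**Figure D3:**
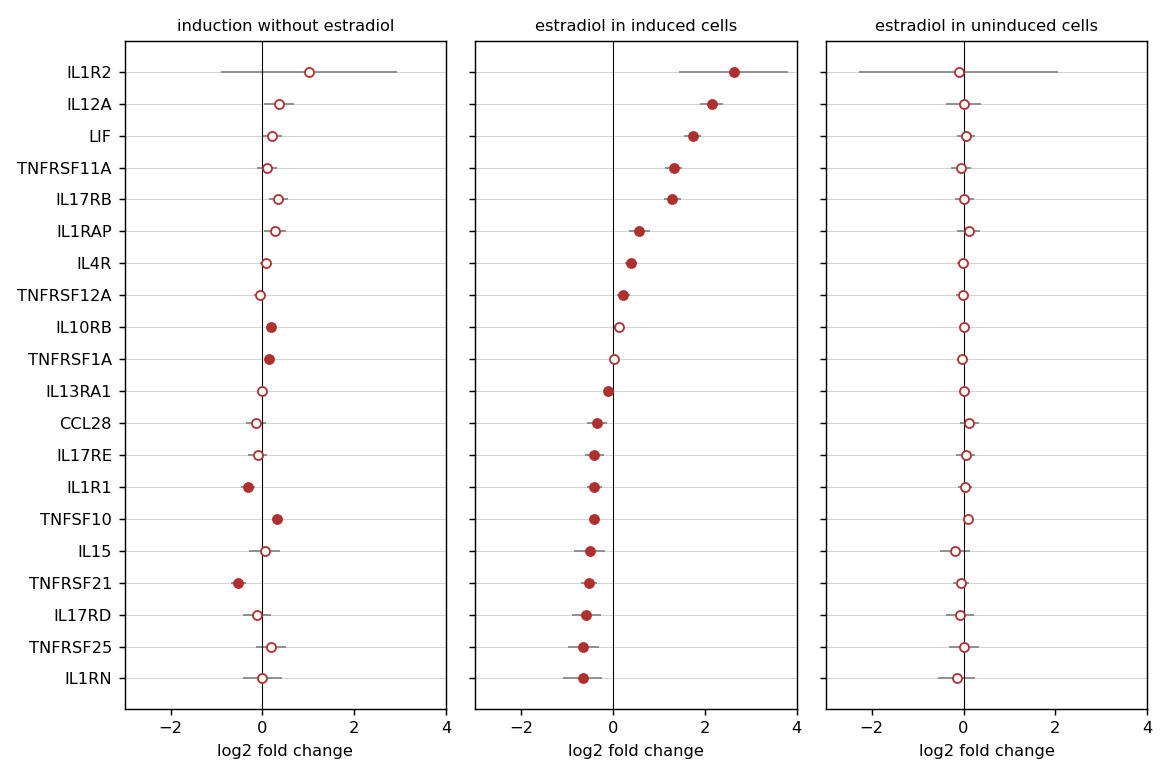
Log2 change, in 1 panel each for induction without estradiol, estradiol in induced cells and estradiol in uninduced cells, of the members called in any of the 3, with bars for the 95% confidence interval of the edgeR fit and filled points for an adjusted p under 0.05. The 4 members with the smallest p under estradiol in induced cells (LIF, IL12A, IL17RB and TNFRSF11A) lie near 0 under estradiol in uninduced cells.

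Without the receptor induced, no member passed the test. Estradiol in uninduced cells called 0 of 80 tested members and 0% of all genes by edgeR, and DESeq2 and limma-voom also called 0 members. At an unadjusted p under 0.05 there were 2 members, against 227 genes (1.56%) in all. The 3 members with the smallest p were IL1RL2, the IL-36 receptor (−0.54, unadjusted p = 0.0193), IL2RA, a chain of the IL-2 receptor with 1 to 14 counts per library (1.66, unadjusted p = 0.0282), and TNFSF10 (0.10, unadjusted p = 0.0639), each with an adjusted p of 1. For the 4 strongest responders of induced cells the 95% intervals of the log2 change were −0.15 to 0.25 for LIF, −0.38 to 0.38 for IL12A, −0.19 to 0.22 for IL17RB and −0.27 to 0.17 for TNFRSF11A. None of these intervals reached the changes seen in induced cells.

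The difference between both estradiol responses was tested as an interaction, for which the uninduced log2 response was subtracted from the induced one. It called 8 of 80 tested members (10%), 5 positive and 3 negative, against 8.47% of all genes (5.66% positive, 2.81% negative). The positive ones were LIF (1.69, SE 0.13, adjusted p = 1.14e-06), IL12A (2.15, adjusted p = 6.84e-06), TNFRSF11A (1.37, adjusted p = 1.28e-05), IL17RB (1.28, adjusted p = 1.53e-05) and IL4R (0.39, adjusted p = 0.00725). The negative ones were TNFSF10 (−0.52, adjusted p = 0.000274), IL1R1 (−0.44, adjusted p = 0.0142) and TNFRSF21 (−0.48, adjusted p = 0.0167). For TNFRSF21 the adjusted p was 0.0592 without induced vehicle replicate 2, 0.0513 without induced vehicle replicate 3 and 0.000156 with the replicate block. With the replicate block 18 members were called (9 positive, 9 negative), against 14.7% of all genes. Of the 10 gained, 7 had been called with estradiol in induced cells: IL17RD (−0.51, adjusted p with the block = 6.41e-05), IL1R2 (2.72, 0.00634), CCL28 (−0.47, 0.00664), IL17RE (−0.46, 0.00832), TNFRSF12A (0.24, 0.0137), IL1RAP (0.47, 0.0138) and TNFRSF25 (−0.66, 0.0408). The rest were CX3CL1 (0.31, 0.000365), IL20RA (−0.42, 0.00694) and IL8 (−1.49, 0.0126). Without the block the adjusted p of these 10 was 0.0583 to 0.402. Among them, IL1R2 had entered the test only through the induced estradiol libraries, so its value is given as a description. For IL15, IL13RA1 and IL1RN a difference between the responses was called in neither fit.

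Doxycycline without estradiol changed 5 of 80 tested members (6.25%), 3 higher and 2 lower, against 3.81% of all genes (2.44% higher, 1.37% lower). TNFRSF21 fell from 140, 136 and 139 CPM in uninduced vehicle to 83.0, 104 and 101 CPM in induced vehicle libraries (−0.52, SE 0.08, adjusted p = 0.00135). TNFSF10 rose from 43.2, 42.7 and 44.1 CPM to 57.0, 51.6 and 55.3 CPM (0.33, SE 0.05, adjusted p = 0.00157). Neither pair of groups overlapped. For TNFSF10 the change with induction was opposite to the change with estradiol, and for TNFRSF21 both were decreases. The vehicle libraries of induced cells are shared by these comparisons, so their values are not independent.

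IL1R1 fell from 18.9, 20.9 and 19.8 CPM to 14.5, 16.3 and 17.3 CPM (−0.31, SE 0.07, adjusted p = 0.0250). IL10RB rose from 63.1, 65.7 and 67.2 CPM to 78.4, 72.3 and 73.2 CPM (0.18, SE 0.04, adjusted p = 0.0315), and TNFRSF1A from 49.5, 48.1 and 48.8 CPM to 53.6, 55.3 and 53.3 CPM (0.15, SE 0.04, adjusted p = 0.0445). These 3 calls were near the threshold. IL1R1 lost its call without uninduced vehicle replicate 2 (adjusted p = 0.144) or 3 (0.0800), or induced vehicle replicate 1 (0.0717) or 2 (0.0738). IL10RB lost it without any 1 of the 3 uninduced vehicle libraries or of induced vehicle replicates 1 and 3 (0.0588 to 0.107). TNFRSF1A lost it without any 1 library other than induced estradiol replicate 1 (0.0553 to 0.167), under upper quartile scaling (0.0677) and in DESeq2 (0.134). With the replicate block the adjusted p was 0.00369 for IL1R1, 0.0109 for IL10RB and 0.0164 for TNFRSF1A. LIF (0.22, adjusted p = 0.275) and IL12A (0.36, adjusted p = 0.255) did not pass. With the replicate block 9 members were called (5 higher, 4 lower), against 10% of all genes. Those added were IL17RB (0.35, adjusted p from 0.0641 to 0.00248), IL6ST (0.17, from 0.0922 to 0.00293), TNFRSF11B (−1.29, to 0.0386) and CCL22 (−0.30, to 0.0334). Since TNFRSF11B entered the test only with the help of the uninduced vehicle libraries, where it was higher, its difference is given as a description.

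With estradiol present, induction changed 24 of 80 tested members (30%), 12 in each direction, against 28% of all genes (15% higher, 13% lower). Under upper quartile scaling the split was 10 higher and 17 lower. The largest increases were those of IL12A (2.51), LIF (1.91), IL17RB (1.63) and TNFRSF11A (1.48), all on the log2 scale. IL1R2 is also among the 12 higher members, at 3.75, but it entered the test only through the induced estradiol libraries. This comparison shares its induced estradiol libraries with the estradiol comparison above. The other increases were those of CCL20, IL1RAP, IL4R, IL10RB, TNFRSF1A, TNFRSF12A and IL6ST. TNFRSF21 fell by 1.0 and IL1R1 by 0.75, to levels that no uninduced library reached.

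Of the 13 tested chemokines, 5 were called with induction in the presence of estradiol (38.5%, against 28% of all genes): CCL20 rose, and CXCL1, CXCL16, CCL28 and IL8 fell. With so few genes, this share describes the tested chemokines only. IL8 was at 2.26, 1.14 and 1.39 CPM in uninduced estradiol and 0.569, 0.236 and 0.449 CPM in induced estradiol libraries (−1.92, adjusted p = 0.00549). CXCL1, a close relative of IL8 in function, went from 0.906, 0.508 and 0.556 CPM to 0.0569, 0.354 and 0.180 CPM (−1.54, adjusted p = 0.0159), which is 14 to 17 counts against 1 to 9. The CXCL1 call was lost without uninduced estradiol replicate 1 (0.0520), induced estradiol replicate 1 (0.0510) or induced estradiol replicate 3 (0.0616). In the libraries of the later date only, the change of CXCL1 was −0.95 (adjusted p = 0.113). CCL20, an attractant for cells with CCR6, went from 0.679, 0.747 and 0.835 CPM to 1.31, 2.24 and 1.53 CPM (1.18, adjusted p = 0.00781, or 0.0596 without induced estradiol replicate 2). CXCL16 went from 37.1, 44.4 and 42.3 CPM to 35.4, 35.2 and 35.6 CPM (−0.23, adjusted p = 0.0311), but its adjusted p was 0.0598 to 0.154 without any 1 of 5 libraries, namely uninduced estradiol replicates 2 and 3 and each induced estradiol replicate. With the replicate block the adjusted p was 0.0107 for CXCL1, 0.00351 for CCL20 and 0.00123 for CXCL16. CCL28 fell by 0.60. The related genes CXCL2 and CXCL3 had at most 7 counts in any library and CXCL5 at most 2, and none of them was tested.

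The remaining decreases were TNFSF10 (−0.20), IL13RA1 (−0.13), IL17RE (−0.55), IL17RD (−0.62), TNFRSF25 (−0.45) and IL22RA2 (−0.60), a soluble antagonist of IL-22. Some calls in this comparison were lost without 1 library. For IL6ST the adjusted p was then 0.0507 to 0.0685 (uninduced estradiol 2, induced estradiol 1 or 2), and for TNFRSF12A 0.0558 to 0.129 (uninduced estradiol 1, induced estradiol 1 or 2). Under upper quartile scaling they were 0.0554 and 0.0757. For IL22RA2 it was 0.0540 to 0.0950 (uninduced estradiol 1 or 2, induced estradiol 2 or 3), and for TNFRSF25 0.0505 to 0.165 (uninduced estradiol 2 or 3, any induced estradiol library) and 0.144 in DESeq2. For IL13RA1 it was 0.0534 without induced estradiol 1. With the replicate block the adjusted p was 0.000238 for IL6ST, 0.00153 for TNFRSF12A, 6.68e-05 for IL22RA2, 0.0218 for TNFRSF25 and 0.00408 for IL13RA1. LIFR, at 14.5, 13.7 and 14.3 CPM in uninduced estradiol and 16.8, 16.3 and 16.9 CPM in induced estradiol libraries, had an adjusted p of 0.0622, or 0.0202 with the block. With the block 34 members were called, 17 in each direction, against 37.3% of all genes. Those added besides LIFR were CX3CL1 (0.22, adjusted p with the block = 0.000107), IL27RA (0.20, 0.00105), IL7R (1.19, 0.000273) and TNFSF14 (1.25, 0.0395), which were higher. Since TNFSF14 entered the test only with the help of the induced estradiol libraries, its difference is given as a description. Lower were IL20RA (−0.37, 0.000303), IL17RC (−0.27, 0.00205), TNFRSF11B (−1.65, 0.00878), IL1RN (−0.51, 0.0408) and IL15RA (−0.34, 0.0439). TNFRSF11B entered the test only with the help of the uninduced vehicle libraries, which are not compared here. It reached the minimum in 1 uninduced estradiol and 0 induced estradiol libraries, so its difference is given as a description.

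Genes of the wider pathway are read against the 16.5% of all genes called with estradiol in induced cells. Of the listed chemokine receptors only 3 were tested, and 1 rose with estradiol in induced cells (CCBP2, also called ACKR2, a scavenging receptor, 0.39, adjusted p = 0.00276). Among 16 tested hematopoietin-type cytokines and receptors outside the family, CSF1, the macrophage growth factor, was the 1 called (6.25%), and it rose. It was at 23.8, 26.6 and 25.7 CPM in induced vehicle and 37.9, 45.3 and 41.3 CPM in induced estradiol libraries (0.71, adjusted p = 3.26e-05). Induction without estradiol called 4 of these 16 genes (25%), against 3.81% of all genes. They were CSF1, its receptor CSF1R, PRLR and CSF3R, which rose by 0.44, 0.72, 0.23 and 1.02. Of 7 further TNF family genes, 3 were called with estradiol in induced cells (42.9%): RELT (0.39) and EDAR (0.81) rose and FAS (−0.55), a death receptor, fell. With so few genes per list, these shares describe the lists only.

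The shares of both signaling lists were near that of all genes. Of 25 tested JAK-STAT genes, 3 rose and 1 fell with estradiol in induced cells (16%). CISH, a feedback inhibitor that cytokine signals induce, was at 12.7, 12.2 and 11.6 CPM and at 23.2, 23.3 and 25.0 CPM (0.97). JAK1 rose by 0.32 and STAT3 by 0.22, and JAK2 fell by 0.26. SOCS3, the feedback inhibitor of gp130 signals, shifted by −0.23 (SE 0.22, adjusted p = 0.571). Of 42 tested NF-κB signaling genes, 5 rose and 2 fell (16.7%). NFKBIZ, a nuclear IκB protein, fell from 73.7, 70.9 and 70.6 CPM to 39.0, 42.9 and 46.0 CPM (−0.75, adjusted p = 3.48e-07), and BCL3, another nuclear IκB protein, rose by 0.68. Induction without estradiol raised BCL3 (0.58) and TNFAIP2 (0.50) of this list and lowered none (4.76%). In uninduced cells estradiol changed 0 genes of these 5 lists.

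Several members also differed with the date in the file names, whatever the treatment. With the date as a covariate, 24 of 80 tested members differed between the later and the earlier date, 13 higher and 11 lower at the later date, against 17.9% of all genes. IL7R, the IL-7 receptor, was at 2.62, 2.32, 3.26 and 6.20 CPM in the 4 libraries numbered 1 and at 0.318 to 1.21 CPM in the other 8 (−2.34, adjusted p = 3.79e-09). IL1R2 was also lower at the later date (−1.54, adjusted p = 6.96e-05), while CX3CL1 (0.32, adjusted p = 1.65e-07), CXCL17 (1.42), CCL22 (0.53), IL17RD (0.39) and IL20RA (0.46) were higher. Date, lane and replicate number go together in these libraries and cannot be told apart. On the later date alone, estradiol in induced cells called 28 of 77 tested members and 3391 of all genes, against 18 and 2394 on both dates. LIF, IL12A, IL17RB and TNFRSF11A were called under each of the 27 alternatives run for that comparison.

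**Figure D4:**
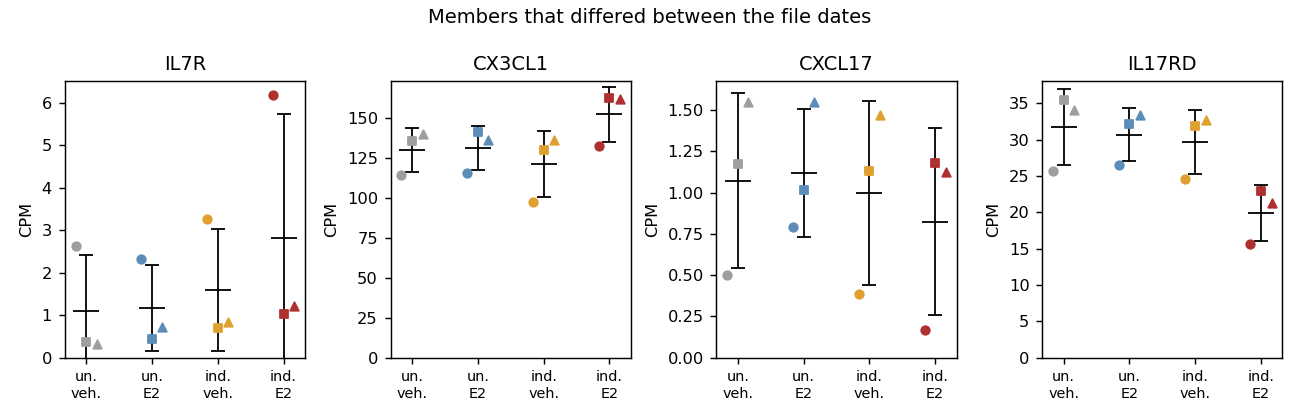
CPM of members that differed with the date in the file names, by library, on linear axes from 0, with circles, squares and triangles for libraries numbered 1, 2 and 3 and bars for the mean ± SD (n = 3). IL7R is highest in the library numbered 1 of each group, and CX3CL1, CXCL17 and IL17RD are lowest there. Bars that would reach below 0 end at the axis.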

How the data were processed

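RNA of 12 libraries in 4 groups of 3 was sequenced after TruSeq V2 preparation, per the labels. The deposited files hold 2 measures per gene symbol: RSEM expected counts, and each gene's fraction of transcripts, which the authors scaled to sum to 1 and which is shown here as TPM (the fraction times 1000000). RSEM 1.1.16, DESeq 1.7.10 and hg19 are named in the submitters' processing notes, while the read aligner is not stated in them or in the labels. The labels do not say that replicates came from separate cultures, so the spread behind each p-value may be technical. No strand setting is stated, so overlapping and near-identical genes (TNFSF12-TNFSF13, TNFRSF6B, the CCL3 and CCL4 copies) are uncertain.

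Expected counts were rounded, kept by filterByExpr (minimum count 10, minimum total 15), scaled by TMM and fitted with edgeR 4.0.16 in R 4.3.3, with 1 mean per group and 8 residual degrees of freedom. P-values were adjusted by Benjamini-Hochberg over all 14541 genes within each contrast, at a threshold of 0.05. CPM are counts per 1000000 after TMM, and intervals use 95% confidence. Alternatives used DESeq2 1.42.0, limma-voom (limma 3.58.1), other scalings, filters, thresholds and sets of libraries.

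Replicate numbers share a lane and a date in the file names, so they were treated as pairing the libraries. Deviations of same-numbered libraries correlated at −0.01 to 0.38 (median 0.20) over 13125 genes, and at 0.23 to 0.59 over the 10427 genes with an average log2 CPM of 3 or more, a limit set after seeing the data. For libraries with different numbers these were −0.34 to 0.29 (median −0.17) and −0.55 to 0.41, so the ranges overlapped. Values from a fit with the number as a block (6 residual degrees of freedom) stand beside results they change.

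Named were LIF, LIFR, the 10 members with the highest mean TPM, called members, their partner chains and ligands, and up to 4 called genes of each pathway list. Genes named outside that rule (untested members, markers and SOCS3) were chosen after their values were seen. The members and lists were chosen with earlier results of these data known. Libraries of the same group differed beyond counting noise, so all 12 were kept. The chi-square per degree of freedom was 4.31 to 7.14 for pairs that include the library numbered 1 and 1.63 to 2.65 for numbers 2 and 3, so number 1 stood apart in each group. The 95% intervals are those of the edgeR fit and include the spread between libraries, while limits for counts of 0 cover counting error only.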

Additional observations from a re-analysis of the deposited data

Results flagged for a closer look

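The estradiol response of 8 members differed between induced and uninduced cells by the interaction test. On the log2 scale the response in induced cells exceeded that in uninduced cells by 2.15 for IL12A, 1.69 for LIF, 1.37 for TNFRSF11A, 1.28 for IL17RB and 0.39 for IL4R. It was lower by a difference of −0.52 for TNFSF10, −0.44 for IL1R1 and −0.48 for TNFRSF21. For TNFSF10 the estimates had opposite signs, −0.42 in induced and 0.10 in uninduced cells, the latter not past the threshold (edgeR adjusted p = 1).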

How the results depend on the processing

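No result reversed. The number of members called for estradiol in induced cells was 18, and became 28 with the file date as a covariate, 28 on the later date only and 11 at an adjusted p under 0.01. Over all genes these numbers were 2394, 3480, 3391 and 1528. The number of members ranged from 8 to 28 with a replicate left out (8 without replicate number 2, 28 without number 1). Over all genes, 1026 were called without number 2 and 3391 without number 1. The counts of members thus changed along with those of all genes. Induction without estradiol called 5 members, and 9 with the replicate block, 9 with the date covariate, 3 with only the 2 groups compared, 2 at an adjusted p under 0.01, and 0 to 6 with a replicate left out. Over all genes these were 554, 1456, 1451, 430, 296 and 106 to 1082. Induction with estradiol called 24 members, and 14 to 33 with a replicate left out (4078 and 2054 to 5064 of all genes). The interaction called 8 members, and 18 with the replicate block, 17 with the date covariate, 14 on the later date only, and 5 to 14 with a replicate left out. Over all genes these were 1232, 2143, 2146, 2105 and 306 to 2105. The replicate block with upper quartile scaling, added after seeing the data, gave 9 members for induction without estradiol, 37 for induction with estradiol and 20 for the interaction (1531, 5877 and 2252 of all genes). The causes were not tested, apart from the fewer libraries or the stricter threshold that an alternative uses by construction. Estradiol in uninduced cells called 0 under every alternative. Of the members called, 7 of 18, 0 of 5, 13 of 24 and 5 of 8 stayed called under all alternatives that tested them. The order is estradiol in induced cells, induction without and with estradiol, and interaction. IL1R2, 1 of the 13, was tested under only 26 of the 27 alternatives. Fitted on only the 2 groups compared, CCL28, IL13RA1, IL15 and IL1RN (estradiol in induced cells), IL10RB, IL1R1 and TNFRSF1A (induction without estradiol) and TNFRSF12A and TNFRSF25 (induction with estradiol) lost their calls, at adjusted p of 0.0523 to 0.124. The fit of only 2 groups is not defined for the interaction. Depth limits the 22 tested members that averaged under 1 CPM.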
